A study of Homo sapiens with 27 samples.

Results

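The genes described here are 10 genes of the TGF-beta, activin and BMP pathway in T47D cells, an established luminal breast cancer line. They were taken by name from the 26485 genes of the gene count table. Of the 10 genes, 6 encode ligand subunits (TGFB1, TGFB2, TGFB3, INHBB, BMP4 and BMP7) and 4 are target genes of the pathway (ID1, ID3, SMAD7 and MSX2). RNA-seq was made from 4 lines with 3 libraries each. The control line carried the empty vector, and the other lines stably expressed a Ty1-tagged truncation mutant of the transcription factor GATA3 named Splice del, C321fs or A333fs. The vectors were lentiviral, the cells were selected with puromycin and had fewer than 10 passages, and all 4 lines still expressed their own wild-type GATA3. Each line was 1 pool of cells, so a feature of a pool cannot be told apart from an effect of its mutant. The p-values measure only the spread between the 3 libraries of such a pool. The sample descriptions and the study's methods name different growth media, so the medium of these cells is not settled.

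TGF-beta, activin and BMP ligands are secreted dimers that bind pairs of type I and type II serine/threonine kinase receptors. TGF-beta and activin receptors phosphorylate SMAD2 and SMAD3, BMP receptors phosphorylate SMAD1 and SMAD5, and the phosphorylated SMADs enter the nucleus with SMAD4 to regulate target genes. In breast epithelium TGF-beta is known to restrain growth and, in carcinoma cells, to promote epithelial-mesenchymal transition. RNA levels of ligands and targets do not measure ligand secretion or SMAD phosphorylation.

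The number of fragments counted on genes ranged from 27872208 to 36788024 per library. Levels are given as CPM, the counts per library brought to a common size and scaled by the trimmed mean of M-values (TMM), with the SD over 3 libraries. A gene was called where edgeR's quasi-likelihood test gave a Benjamini-Hochberg adjusted p below 0.01 over 14789 tested genes and the fold change was over 1.5. All 9 luminal epithelial markers had at least 10 counts in every library. The summed level of 3 of them, KRT8, KRT18 and KRT19, was 14526 to 17640 CPM in control and 8506 to 11384 CPM in the mutant lines. That of the other luminal markers was 3695 to 3852 CPM in control and 3248 to 3745 CPM in the mutant lines, and EPCAM was higher in all 3 mutant lines, by 0.42, 0.37 and 0.37 on the log2 scale. The part of these differences in the results was not tested. Of the basal, fibroblast, endothelial and immune markers, KRT5, COL1A2, PDGFRA, PDGFRB, PTPRC, CD3E and all 3 endothelial genes had at most 3 counts in every library. The summed level of the 4 basal markers was 0.305 to 0.545 CPM in control and 0.296 to 1.52 CPM in the mutant lines, with KRT14 called higher in A333fs (0.569 CPM) and TP63 in C321fs cells (0.769 CPM). The TP63 call was lost with replicate number in the model (edgeR adjusted p = 0.0133) or a trend over GC content and length removed. It was also lost without any 1 control or C321fs library or without Splice del replicate 1. That of the 7 fibroblast markers was 65.4 to 78.95 CPM in control and 50.7 to 66.4 CPM in the mutant lines, with COL3A1 called lower in all 3 lines and, in A333fs cells, COL1A1 lower and ACTA2 higher. The part of these markers in the results was not tested. In these bulk samples fewer expressing cells and less RNA per cell cannot be told apart. GATA3 itself averaged 1281 CPM in control cells and 1001, 1142 and 1016 CPM in the Splice del, C321fs and A333fs lines, and its count joins mutant and wild-type RNA.

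The clearest changes were decreases of INHBB and MSX2, which were called lower in all 3 mutant lines, and an increase of TGFB2, called in A333fs cells and in neither of the other lines. TGFB1 was called lower in Splice del and A333fs cells. The F-test across the 4 lines passed for 9 of the 10 genes, all but BMP7, and 56.2% of all tested genes passed it. Splice del cells had 3 of the 10 genes called lower, where 4.53% of tested genes were called lower, and none called higher by edgeR, where 6.21% were. C321fs cells had 2 called lower and none called higher by edgeR, with 2.26% and 4.63% of tested genes called. At an unadjusted p below 0.05, none of the 10 genes was higher in Splice del and 2 were higher in C321fs cells, and DESeq2 called none higher in either line. A333fs cells had 3 called lower and 1 called higher, with 6.81% and 5.46% of tested genes called. By adjusted p alone, with no limit on the fold change, 6, 5 and 8 of the 10 genes passed in the Splice del, C321fs and A333fs lines, beside 41.1%, 36.8% and 47.4% of tested genes. The 3 comparisons share the same control libraries and are therefore not independent of each other.

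**Figure D1:**
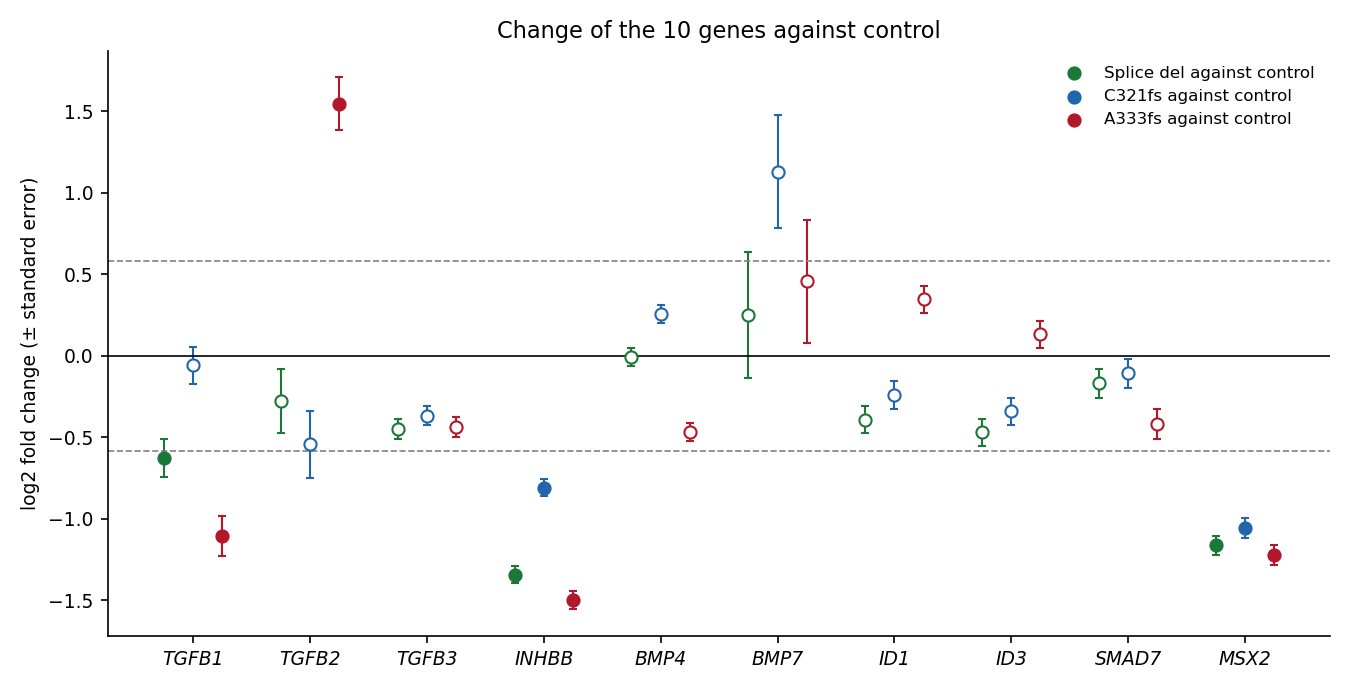
Log2 fold change of each of the 10 genes (horizontal axis) in Splice del, C321fs and A333fs cells against control, with its standard error. Filled points were called, open points were not, and dashed lines mark a fold change of 1.5. INHBB and MSX2 are filled below the lower line in all 3 lines, and TGFB2 reaches 1.55 in A333fs cells alone.

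Levels of different genes were compared per exon length, as CPM per kilobase of exon (FPKM). In control cells ID1 was highest with 93.8 FPKM, followed by ID3 with 66.5, TGFB3 with 43.1, MSX2 with 38.2, INHBB with 30.6 and BMP4 with 25.9 FPKM. SMAD7 and TGFB1 were low, with 2.72 and 1.99 FPKM. TGFB2 with 0.220 FPKM and BMP7 with 0.0797 FPKM were lowest. The TGFB2 value is too low by an unknown amount. It was divided by the full exon length, although fragments in exon parts shared with other genes were not counted. TGFB3 was the most abundant TGF-beta isoform by FPKM in each of the 4 lines, with at least 31.6 FPKM beside at most 1.99 FPKM of TGFB1.

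**Figure D2:**
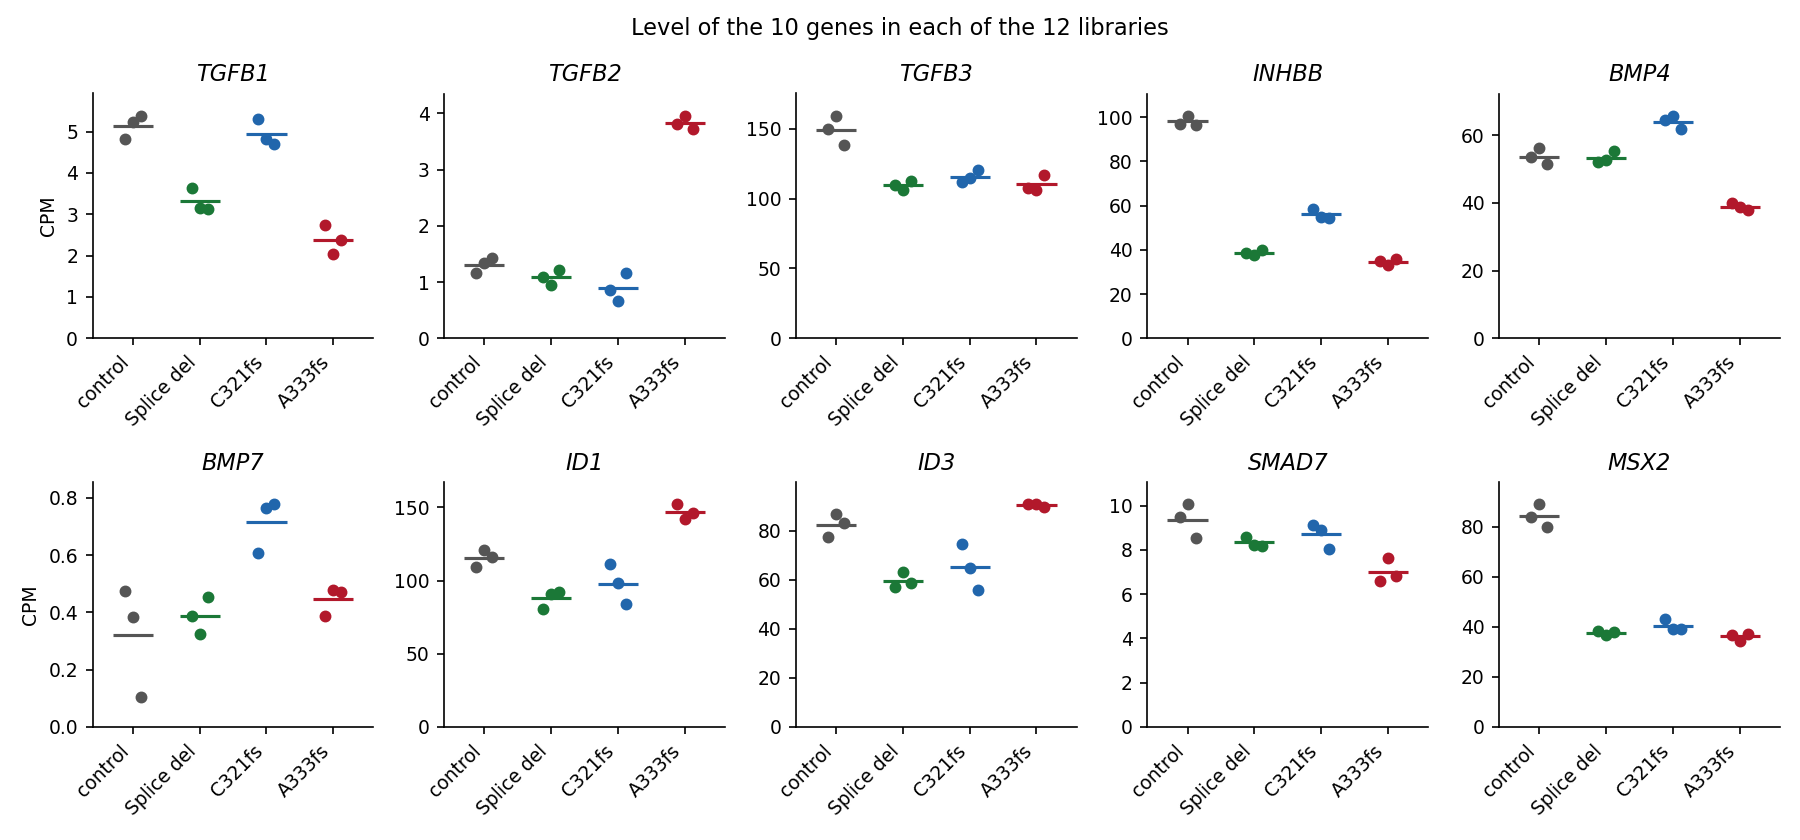
CPM of the 10 genes in each of the 12 libraries, 1 panel per gene, each vertical axis starting at 0. Points are libraries and bars are means of 3 libraries. The 3 A333fs libraries stand above all others for TGFB2, ID1 and ID3 and below all others for TGFB1, INHBB, BMP4 and SMAD7.

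TGFB1, at chr19:41330531-41353933 (hg38, minus strand), encodes the most widely expressed TGF-beta isoform of the body. The control libraries had 4.82, 5.23 and 5.38 CPM and the C321fs libraries 5.30, 4.82 and 4.70 CPM. The Splice del libraries had 3.64, 3.16 and 3.13 CPM and the A333fs libraries 2.74, 2.04 and 2.38 CPM. Control and C321fs libraries overlapped, the Splice del libraries lay below both, and the A333fs libraries were lowest. TGFB1 fell by 1.11 ± 0.12 (SE) on the log2 scale in A333fs cells (edgeR adjusted p = 2.96e-06) and by 0.63 ± 0.12 in Splice del cells (edgeR adjusted p = 0.000349). C321fs cells differed from control by -0.06 ± 0.11 (edgeR adjusted p = 0.696). The Splice del and A333fs levels were neighbours in this order, and their difference of -0.48 was not called (edgeR adjusted p = 0.0148). The Splice del change was close to the fold change limit and was not called after removal of a trend over GC content, where it was -0.42.

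TGFB2, at chr1:218345334-218444619 on the plus strand, encodes the isoform that needs the coreceptor betaglycan to bind its receptors well. Its levels were 1.15, 1.35 and 1.42 CPM in the control libraries, 1.08, 0.946 and 1.22 CPM in those of Splice del and 0.852, 0.659 and 1.17 CPM in those of C321fs. The A333fs libraries had 3.81, 3.96 and 3.73 CPM, from 118, 124 and 127 fragments. All 3 A333fs libraries were above all other libraries, while control, Splice del and C321fs overlapped. TGFB2 rose by 1.55 ± 0.16 on the log2 scale in A333fs cells, a fold change of 2.92 (edgeR adjusted p = 1.62e-06). In C321fs cells the difference from control was -0.54 ± 0.21 and was not called (edgeR adjusted p = 0.0372), and in Splice del cells it was -0.28 ± 0.20 (edgeR adjusted p = 0.245). The exons of TGFB2 overlap those of the antisense gene TGFB2-AS1 and of TGFB2-OT1, and the counting ignored the strand and left out fragments of several genes. Fragments in the shared parts were therefore counted for none of these genes, and the TGFB2 level rests on its other exon bases. TGFB2-AS1 had at most 5 counts in any library.

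TGFB3, at chr14:75958097-75982022 on the minus strand, encodes the third TGF-beta isoform. Control libraries had 150, 159 and 138 CPM, and the mutant libraries lay between 106 and 121 CPM, below all control libraries. The mean was 149 ± 10.4 CPM in control cells, and 109 ± 3.39, 116 ± 4.57 and 110 ± 5.96 CPM in the Splice del, C321fs and A333fs lines (SD, n = 3 each). TGFB3 fell by 0.45 in the Splice del line (edgeR adjusted p = 2.09e-05), by 0.37 in the C321fs line (edgeR adjusted p = 0.000177) and by 0.44 in the A333fs line (edgeR adjusted p = 1.99e-05), with an SE of 0.06 each. These changes passed the test but were smaller than a fold change of 1.5. Differences between mutant lines were at most 0.08 in size, and the libraries of the 3 lines overlapped.

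INHBB, at chr2:120346143-120351807 on the plus strand, encodes the inhibin beta B subunit, which forms activin B as a homodimer. The control libraries had 97.1, 101 and 96.5 CPM. The Splice del libraries had 38.5, 37.8 and 39.7 CPM, the C321fs libraries 58.4, 55.0 and 54.6 CPM and the A333fs libraries 35.0, 33.2 and 35.8 CPM. The 4 lines did not overlap each other, and the order was control, C321fs, Splice del and A333fs. INHBB was 2.83-fold lower in A333fs cells, with an SE of 0.05 on the log2 scale (edgeR adjusted p = 1.42e-11). It fell by 1.34 ± 0.05 in Splice del (edgeR adjusted p = 5.90e-11) and by 0.81 ± 0.05 in C321fs cells (edgeR adjusted p = 7.44e-08). Splice del and A333fs, neighbours in this order, differed by -0.16, which was not called (edgeR adjusted p = 0.05004).

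BMP4, at chr14:53949736-53956836 on the minus strand, encodes a BMP that acts in epithelial and mesenchymal development. The control libraries had 53.4, 56.3 and 51.4 CPM and the Splice del libraries 52.0, 52.7 and 55.4 CPM. The C321fs libraries had 64.6, 65.8 and 61.8 CPM and the A333fs libraries 40.0, 38.7 and 37.9 CPM. C321fs libraries were highest, A333fs libraries lowest, and control and Splice del overlapped in between. Against control, BMP4 rose by 0.25 ± 0.06 in C321fs (edgeR adjusted p = 0.00147) and fell by 0.47 ± 0.06 in A333fs cells (edgeR adjusted p = 5.54e-06), both below the 1.5-fold limit. The difference of -0.01 ± 0.06 in Splice del cells did not pass the test (edgeR adjusted p = 0.899).

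BMP7, at chr20:57168753-57266651 on the minus strand, encodes a BMP related to BMP5 and BMP6. It was counted 14, 12 and 3 times in the control libraries and 15, 11 and 13 times in those of Splice del. The C321fs libraries had 20, 22 and 24 counts and the A333fs libraries 12, 15 and 16. C321fs libraries were highest, and the third control library was far below the other control libraries. The C321fs difference of 1.13 ± 0.35 missed the threshold (edgeR adjusted p = 0.0130). It was called with upper-quartile scaling (1.22), no scaling (1.297), removal of the trend over GC content and length (1.26) and without control replicate 1 (1.50041), and was 0.73 without control replicate 3. At this depth smaller differences of BMP7 were not detectable.

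ID1 and ID3 encode inhibitors of DNA binding, which sequester basic helix-loop-helix factors and are among the most direct target genes of BMP receptors and SMAD1/5. ID1, at chr20:31605283-31606514 on the plus strand, had 109, 121 and 116 CPM in the control libraries and 152, 142 and 146 CPM in those of A333fs. The Splice del libraries had 80.9, 91.1 and 92.4 CPM and the C321fs libraries 111, 98.5 and 83.7 CPM. A333fs libraries were above and Splice del libraries below all control libraries, and C321fs libraries were spread across both control and Splice del. ID1 rose by 0.35 ± 0.08 in A333fs (edgeR adjusted p = 0.00206) and fell by 0.39 ± 0.08 in Splice del cells (edgeR adjusted p = 0.00104), both below the 1.5-fold limit. In C321fs cells the difference was -0.24 ± 0.08 (edgeR adjusted p = 0.0257).

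ID3, at chr1:23557930-23559794 on the minus strand, had 77.3, 86.6 and 83.3 CPM in the control libraries and 90.7, 90.7 and 89.6 CPM in those of A333fs. The Splice del libraries had 56.8, 62.9 and 58.8 CPM and the C321fs libraries 74.5, 64.9 and 55.6 CPM. Its lines stood in the same order as those of ID1, from A333fs through control and C321fs to Splice del. ID3 fell by 0.47 ± 0.08 in Splice del (edgeR adjusted p = 0.000215) and by 0.34 ± 0.08 in C321fs cells (edgeR adjusted p = 0.00309), again by less than 1.5-fold. The A333fs libraries lay above all control libraries, but the difference of 0.13 ± 0.08 did not pass the test (edgeR adjusted p = 0.178). After removal of a trend over GC content and length, this difference was 0.35 and passed the test (edgeR adjusted p = 1.40e-05), still below the 1.5-fold limit.

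SMAD7, at chr18:48919853-48950711 on the minus strand, encodes an inhibitory SMAD that is induced by the pathway and blocks its receptors. It had 9.50, 10.1 and 8.54 CPM in the control libraries and 6.62, 7.63 and 6.81 CPM in those of A333fs. The Splice del libraries had 8.59, 8.24 and 8.18 CPM and the C321fs libraries 9.13, 8.91 and 8.07 CPM. A333fs libraries were lowest and the other lines overlapped. SMAD7 fell by 0.42 ± 0.09 in A333fs cells (edgeR adjusted p = 0.000983), below the 1.5-fold limit. After removal of a trend over GC content and length, this change was -0.23 and did not pass the test (edgeR adjusted p = 0.0354). The differences in Splice del and C321fs cells, -0.17 and -0.11, did not pass the test (edgeR adjusted p = 0.125 and 0.332).

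MSX2, at chr5:174724572-174730899 on the plus strand, encodes a homeobox transcription factor and BMP target of developing epithelia. The control libraries had 83.8, 89.0 and 80.0 CPM. Splice del libraries had 38.1, 36.8 and 37.9 CPM, C321fs libraries 43.0, 39.1 and 39.3 CPM and A333fs libraries 36.9, 34.4 and 37.1 CPM. All 9 mutant libraries lay between 34.4 and 43.0 CPM, far below control. MSX2 fell by 1.16 ± 0.06 in the Splice del line (edgeR adjusted p = 1.47e-09), by 1.06 ± 0.06 in the C321fs line (edgeR adjusted p = 1.34e-08) and by 1.22 ± 0.06 in the A333fs line (edgeR adjusted p = 5.78e-10). Among the mutant lines the differences were at most 0.16 in size and none was called.

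The promoters of the genes called lower in all 3 lines are shown, as the 250 bases before the RefSeq start site (GRCh38.p14, 5′ to 3′ on the gene's strand), with matches to the searched motifs in capitals. The motifs were the GATA motif (AGATAA with a final A or G, and TGATAA with a final A or G), the BMP-responsive motif GGCGCC and the SMAD motif CAGAC, on both strands. The INHBB window is chr2:120345886-120346135 and the MSX2 window is chr5:174724332-174724581, both on the plus strand.
INHBB: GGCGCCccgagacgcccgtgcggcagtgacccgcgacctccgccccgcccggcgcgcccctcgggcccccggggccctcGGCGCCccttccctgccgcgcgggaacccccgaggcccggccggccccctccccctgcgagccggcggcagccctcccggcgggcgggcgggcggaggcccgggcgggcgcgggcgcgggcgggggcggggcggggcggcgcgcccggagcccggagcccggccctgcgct
MSX2: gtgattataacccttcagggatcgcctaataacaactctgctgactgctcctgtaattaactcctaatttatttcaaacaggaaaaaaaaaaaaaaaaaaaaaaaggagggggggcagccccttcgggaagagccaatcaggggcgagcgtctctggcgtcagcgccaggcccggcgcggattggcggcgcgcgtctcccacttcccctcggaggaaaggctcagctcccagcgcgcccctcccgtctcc
The INHBB window holds GGCGCC at -250 to -245 and at -171 to -166 from the start site and has a GC content of 89.6%. The MSX2 window, with a GC content of 55.6%, holds no match to any of the motifs. Of 35116 promoter windows of this length, 16.4% hold GGCGCC, 38.003% hold CAGAC and 22.3% hold the GATA motif. A match is a string of letters and not a mapped binding site.

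The mutant lines were then compared with each other in the same fit. The control levels do not enter these differences, but the control libraries enter the filter, the scaling and the estimate of the spread. A333fs and C321fs cells differed most, with 5 of the 10 genes called where 5.55% of tested genes were called. TGFB2 was higher in A333fs by 2.09 ± 0.17 on the log2 scale (edgeR adjusted p = 2.61e-07) and ID1 by 0.59 ± 0.08 (edgeR adjusted p = 8.65e-05). TGFB1, BMP4 and INHBB were lower in A333fs, and their differences from C321fs were -1.05, -0.72 and -0.69. The ID1 fold change was 1.502 and thus close to the limit. A333fs and Splice del cells differed in 3 genes, where 3.0% of tested genes were called, and all 3 were higher in A333fs. The differences were 1.83 ± 0.16 for TGFB2 (edgeR adjusted p = 1.93e-06), 0.74 ± 0.08 for ID1 (edgeR adjusted p = 2.02e-05) and 0.60 ± 0.08 for ID3 (edgeR adjusted p = 0.000123). Between Splice del and C321fs none of the 10 genes was called by edgeR or DESeq2, where 2.64% of tested genes were called by edgeR, and 4 had an unadjusted p below 0.05. By adjusted p alone, 6 of the 10 genes differed between A333fs and C321fs and 4 between A333fs and Splice del, beside 15.7% and 11.9% of tested genes. Between Splice del and C321fs 6.32% of tested genes passed it, and TGFB1, INHBB and BMP4 were lower in Splice del cells, with differences from C321fs of -0.57, -0.53 and -0.26.

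Fold changes of all tested genes against control followed the GC content of their exons. The median log2 fold change in genes of 35 to 40% GC was 0.30, 0.32 and 0.31 in the Splice del, C321fs and A333fs lines. In genes of 60 to 65% GC it was -0.25, -0.25 and -0.45. Of the 10 genes, TGFB1 has the highest exon GC content with 64.7% and TGFB2 the lowest with 42.4%. In A333fs cells the median of tested genes within 2.5 points of their GC content was -0.49 beside TGFB1 and 0.28 beside TGFB2. After the trend over GC content and length was removed, TGFB1 was still called in A333fs cells with -0.66 and TGFB2 with 1.29. INHBB was then -1.23, -0.68 and -1.27 in the Splice del, C321fs and A333fs lines, and MSX2 was -1.28, -1.17 and -1.38, all called. ID1 in A333fs cells, at 0.60, was then called as well.

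**Figure D3:**
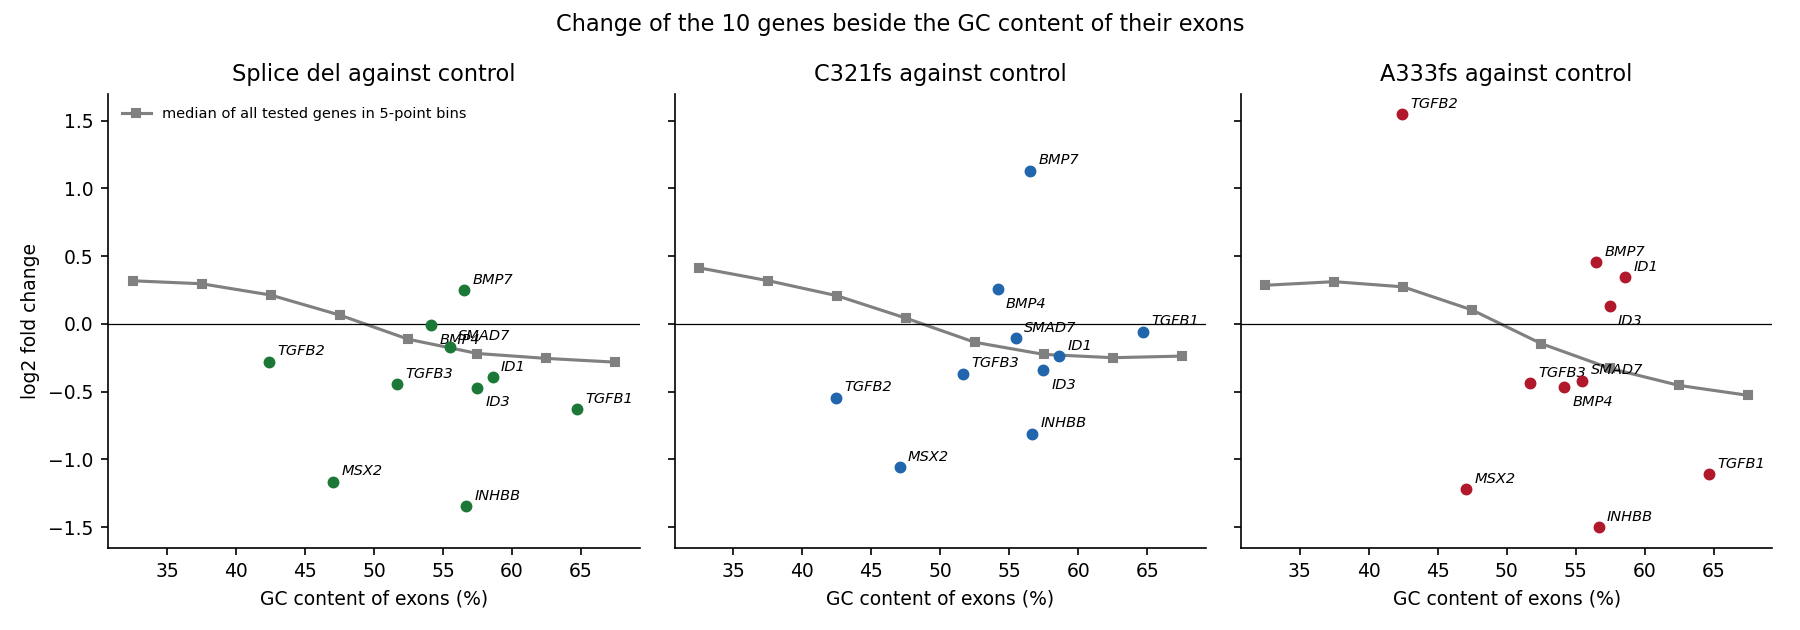
Log2 fold change of the 10 genes against control (points) by the GC content of their exons, 1 panel per mutant line. The grey line joins the medians of all tested genes in bins of 5 percentage points, and INHBB and MSX2 lie well below it in all 3 panels.

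The wider pathway was described with 9 lists of genes by role, which also hold the 10 genes. They joined to 127 genes in the table, of which 88 were tested. Beside the calls in these lists, 6.21%, 4.63% and 5.46% of all tested genes were called higher in the Splice del, C321fs and A333fs lines. Called lower were 4.53%, 2.26% and 6.81%. Shares at an unadjusted p below 0.05 were not counted over all tested genes. Among the 11 tested TGF-beta and activin ligands, 3 were called lower in Splice del, 1 lower in C321fs, and 4 lower and 2 higher in A333fs cells. Beside the genes above, INHBE, an activin subunit best known from liver, fell by 0.96 in Splice del and by 0.91 in A333fs cells. INHBA, which forms activin A, rose by 2.17 ± 0.29 in A333fs cells (edgeR adjusted p = 1.40e-05), from 0.279 ± 0.118 CPM in control to 1.27 ± 0.253 CPM (SD, n = 3). The ligand called lower in A333fs cells that the naming rule left out was AMH, at -0.78, and it was named after its values were seen. Its call was lost without control replicate 2 (-0.596, edgeR adjusted p = 0.0276) or A333fs replicate 3 (-0.52). The median over this list was -0.28, -0.11 and -0.06 in the Splice del, C321fs and A333fs lines, beside 0.03, 0.02 and 0.01 over all tested genes. In the same order of lines, the medians were 0.18, 0.34 and -0.0026 for BMP ligands and 0.34, 0.26 and 0.14 for receptors and coreceptors. For SMAD proteins they were 0.21, 0.12 and 0.33, and for antagonists 0.19, 0.31 (without DCN) and 0.57. Factors of latency and activation had 0.08, -0.02 and 0.26, and intracellular regulators 0.06, 0.14 and -0.04. SMAD2/3 targets had -0.04, -0.02 and -0.42, and SMAD1/5 targets -0.09, -0.17 and 0.17. None of the 4 tested BMP ligands was called by edgeR or DESeq2 in any mutant line against control, where 1, 3 and 1 of them had an unadjusted p below 0.05. With upper-quartile scaling, no scaling or the trend removed, BMP8A was called higher in Splice del cells, at 0.61, 0.71 and 0.64, and with no scaling or the trend removed in C321fs cells, at 0.587 and 0.59, beside BMP7. After removal of the GC and length trend AMH was -0.21 and was not called.

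Of 13 tested receptors and coreceptors, 3, 1 and 2 were called higher in the Splice del, C321fs and A333fs lines, and none was called lower by edgeR. BMPR1B, a type I BMP receptor, rose in all 3 lines, from 1.27 ± 0.0477 CPM in control to 3.59 ± 0.569, 2.98 ± 0.531 and 2.79 ± 0.713 CPM (SD, n = 3 each). TGFBR3, which encodes betaglycan, rose by 1.23 ± 0.12 in Splice del (edgeR adjusted p = 1.05e-06) and by 0.99 ± 0.12 in A333fs cells (edgeR adjusted p = 6.71e-06). ACVR1C, an activin receptor counted at most 0.800 CPM in any library, rose by 2.37 ± 0.62 in Splice del cells, a call that was lost without control replicate 1 (2.38, edgeR adjusted p = 0.0168), control replicate 2 (1.94, edgeR adjusted p = 0.0296) or Splice del replicate 1 (1.89, edgeR adjusted p = 0.0367). TGFBR2, the type II receptor of TGF-beta, was looked at after its values were seen. It had 0 counts in all control and Splice del libraries and at most 1 count in any C321fs or A333fs library. A count of 0 allows up to 3 fragments per library. TGFBR1 had 59.3 CPM and BMPR2 53.3 CPM in control. Of 8 SMAD genes, 3, 2 and 7 passed by adjusted p alone in the Splice del, C321fs and A333fs lines. The shares of all tested genes were 41.1%, 36.8% and 47.4%. Only SMAD3 was called against control. It rose from 8.67 ± 0.675 CPM in control to 20.1 ± 1.57, 15.1 ± 0.491 and 16.3 ± 0.856 CPM in the Splice del, C321fs and A333fs lines (SD, n = 3 each), by 1.21, 0.80 and 0.91 on the log2 scale.

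Extracellular antagonists and factors of ligand activation changed in both directions. Of 10 tested antagonists, 3 were called higher and 2 lower in Splice del, 1 higher in C321fs, and 4 higher and 1 lower in A333fs cells. SOSTDC1, a BMP antagonist, rose in all 3 lines, from 1.601 ± 0.118 CPM in control to 3.47 ± 0.0614, 2.75 ± 0.483 and 3.49 ± 0.473 CPM. BMPER, which binds BMPs, rose by 1.54 in Splice del and 1.88 in A333fs cells. DCN encodes the matrix proteoglycan decorin, which binds TGF-beta. It had at most 3 counts in every control and C321fs library and was at least 59.4-fold higher in Splice del and at least 122-fold higher in A333fs cells, with a floor of 3 counts per library. BAMBI, a decoy receptor and itself a target of the pathway, rose by 0.71 ± 0.05 in A333fs cells (edgeR adjusted p = 3.73e-08), from 53.1 ± 2.00 to 87.1 ± 1.41 CPM. FSTL3, which binds activins, fell by 0.94 in Splice del and by 0.84 in A333fs cells. ITGB6 and ITGB8, integrin subunits that activate latent TGF-beta, rose in all 3 lines, by 1.67, 1.51 and 1.19 for ITGB6 and by 1.72, 0.68 and 1.31 for ITGB8. LTBP4, a latent TGF-beta binding protein, fell by 0.79 in A333fs cells. After removal of the GC and length trend, SOSTDC1 (0.48) and ITGB8 (0.39) were not called in C321fs cells and FSTL3 (-0.40) and LTBP4 (-0.27) not in A333fs cells. The C321fs call of ITGB8 was also lost without control replicate 2 or 3 or C321fs replicate 2 or 3, at 0.69, 0.66, 0.63 and 0.59. None of 14 intracellular regulators was called by edgeR or DESeq2 against control. An adjusted p below 0.01 was reached by 7, 8 and 7 of them in the Splice del, C321fs and A333fs lines. Of all tested genes 41.1%, 36.8% and 47.4% reached it. At an unadjusted p below 0.05 there were 10, 12 and 8 of the regulators. With no scaling USP15 was called in C321fs cells at 0.62, and with the trend removed SKIL in A333fs cells at -0.79.

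Of 13 tested SMAD2/3 targets, none was called by edgeR or DESeq2 in Splice del or C321fs cells. There 4 each had an adjusted p below 0.01, beside 41.1% and 36.8% of tested genes, and 7 each an unadjusted p below 0.05. In Splice del cells LTBP2 was called with no scaling, at 0.63, and SNAI1, at -0.73, in the fit of these lines alone. In C321fs cells FN1 was called without C321fs replicate 3, at -0.617. In A333fs cells 10 had an adjusted p below 0.01, beside 47.4% of tested genes, and of these 2 were called higher and 3 lower. CTGF, a matricellular protein, rose by 2.98 ± 0.27 (edgeR adjusted p = 3.90e-07) and CDKN2B, an inhibitor of cyclin-dependent kinases, by 0.63 ± 0.08 (edgeR adjusted p = 8.11e-06). SNAI1, a transcription factor of epithelial-mesenchymal transition, fell by 1.27, the collagen gene COL1A1 by 0.83 and the actin-binding TAGLN by 0.78. Of 14 tested SMAD1/5 targets, 2 were called lower in Splice del, 3 lower in C321fs, and 3 higher and 2 lower in A333fs cells. DLX3, a homeobox factor like MSX2, fell in all 3 lines by 0.77, 0.75 and 0.59. ID2 rose by 0.61 ± 0.08 in A333fs cells (edgeR adjusted p = 1.41e-05), as BAMBI did. ATOH8, at most 3 counts in every control library, was at least 5.48-fold higher there. DLX2, lower in C321fs cells at -0.62, was named after its values were seen. Removal of the GC and length trend ended the A333fs calls of CDKN2B (0.41), ID2 (0.37), COL1A1 (-0.45), TAGLN (-0.51) and DLX3 (-0.34) and the C321fs call of DLX2 (-0.48). DLX2 was also not called there with upper-quartile scaling (-0.53) or no scaling (-0.45). Its call was lost without control replicate 2 or 3 or C321fs replicate 2, at -0.57, -0.583 and -0.48. ID2 was not called without control replicate 1 (0.575), and DLX3 not in Splice del or C321fs cells with no scaling (-0.58 each). The A333fs change of DLX3 was at the limit and fell below it under 7 other alternatives of scaling, filter, samples or test, and at -0.53, -0.55 and -0.57 without control replicate 2, A333fs replicate 1 or A333fs replicate 3.

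**Figure D4:**
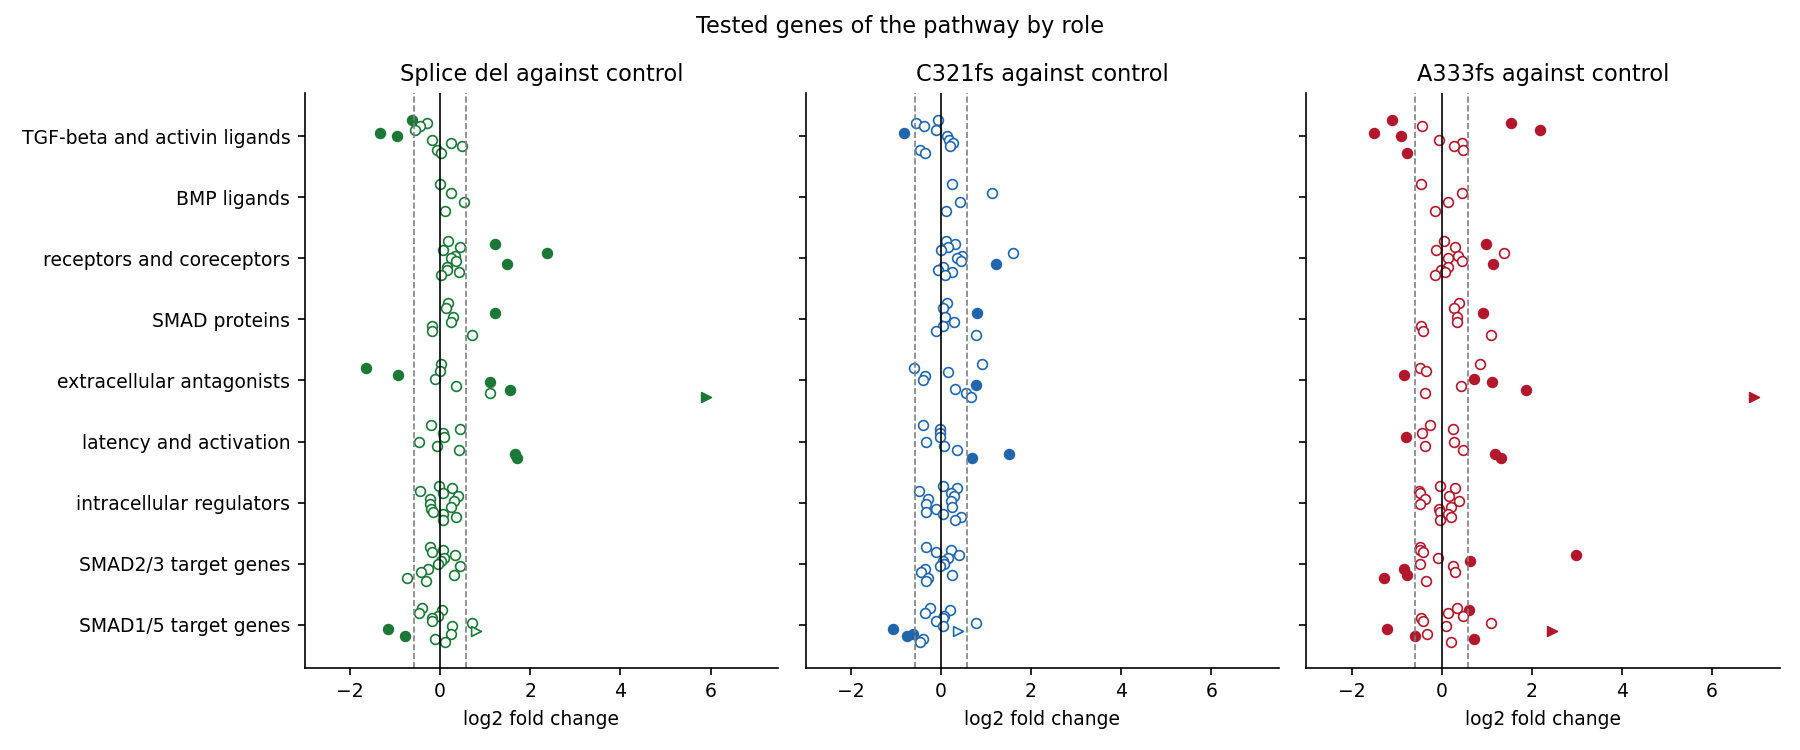
Log2 fold change against control of the tested genes of 9 pathway lists, 1 row per list and 1 panel per mutant line. Filled points were called, dashed lines mark a fold change of 1.5, and triangles are lower bounds for genes at the floor of 3 counts in control. SMAD3 is the filled point of its row in each panel, and DCN is the triangle at the far right in Splice del and A333fs cells.

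The genes most like each of the 10 over the 12 libraries were named by Pearson's r of log2 CPM, given as a description because the libraries share their 4 lines. INHBB was most like ABTB2 with 0.996 and MSX2 most like NPLOC4 with 0.991. TGFB3 was most like DNAJC11 with 0.989, TGFB1 most like CGREF1 with 0.987, ID1 most like RPS12 with 0.981 and BMP4 most like SLC16A3 with 0.978. ID3 followed FJX1 with 0.971 and ID1 with 0.961. TGFB2 followed HSPB11 with 0.963 and BAMBI with 0.961. SMAD7 was most like GPC1 with 0.936 and BMP7 most like SNORD99 with 0.890.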

How the data were processed

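RNA-seq counts of 12 libraries, 3 from each of 4 lines, were analysed. The authors trimmed reads with Trimmomatic and aligned them to hg38. The deposited table's header shows a STAR folder, while the submitters' processing notes name HISAT2. The deposited values are whole-number counts of paired fragments per gene from featureCounts 1.6.4, not normalized, counted without strand and without fragments of several mapping places or several genes. Per-sample columns without a sample numbered 0. The ChIP-seq samples were not used here, and the values of 1 counted antagonist are not reported here.

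Genes were kept with filterByExpr by line (14789 of 26485, including all 10 genes), scaled by TMM and tested in edgeR 4.0.16 (R 4.3.3) by glmQLFit and glmQLFTest. The model had a coefficient for each line and nothing else. Calls needed a fold change over 1.5 and an adjusted p (Benjamini-Hochberg) below 0.01. CPM and FPKM were computed from the counts, and r from log2 CPM after adding a prior count of 2. The floor was 3 counts per library, and a line counted as at the floor where no library exceeded it. The GC and length trend was fitted by loess with a span of 0.3. Motifs were searched in RefSeq promoter windows.

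The 10 genes, the lists and the tests were chosen with earlier results of these data known. Named were the 10 genes, up to 5 called genes per list by the smallest p of the F-test, and the 2 genes most like each of the 10, of which 1 or 2 are given. Libraries with the same replicate number were not paired: over 18 pairs the correlation of residuals averaged -0.00915 (-0.123 to 0.165). No libraries agreed within sampling noise, with a chi-square per gene of at least 2.17. It was highest in C321fs, with 16.3 and 28.6 between replicate 1 and replicates 2 and 3, beside 5.75 between replicates 2 and 3. All lines shared 1 estimate of the spread, and the part of this in the standard errors was not tested. On simulated counts of Splice del against control over 14789 genes, 196 of 200 genes changed 2-fold were recovered with 0 false calls. The simulation gave every gene the same dispersion of 0.00453, had no GC trend or deviating library, and changed no genes of the lowest levels. It therefore checks that the fit works and not the calls in these data. Alternatives were RLE, upper-quartile and no scaling, other filters and limits, DESeq2 1.42.0, a replicate block, the trend removal, the libraries of a pair alone and fits without each library.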

Additional observations from a re-analysis of the deposited data

Results flagged for a closer look

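A difference between mutant lines, tested directly and called, singled out 5 genes between A333fs and C321fs and 3 genes between A333fs and Splice del. Of all tested genes, 5.55% and 3.0% were called in these comparisons. On the log2 scale A333fs minus C321fs was -1.05 for TGFB1, 2.09 for TGFB2, -0.69 for INHBB, -0.72 for BMP4 and 0.59 for ID1. A333fs minus Splice del was 1.83 for TGFB2, 0.74 for ID1 and 0.60 for ID3. The largest edgeR adjusted p among these was 0.000123, for ID3. In each case the 3 A333fs libraries did not overlap the 3 libraries of the other line. These genes were picked by their calls on the same libraries, so this adds no further support.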

How the results depend on the processing

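Of 1254 values of the 10 genes under the alternatives, 1220 kept their direction and their side of the threshold, and none of the 17 that changed sign had been called. INHBB and MSX2 were called in all 3 lines under every alternative. With no minimum fold change, 6, 5 and 8 genes were called in the Splice del, C321fs and A333fs lines against control, and 3 between Splice del and C321fs, where 41.1%, 36.8%, 47.4% and 6.32% of all tested genes were called. Tested against a fold change of 1.5, 1 gene (TGFB2) was called in A333fs against C321fs and 1 against Splice del. With the GC and length trend removed, 4 were called in C321fs cells (TGFB2 and BMP7 added). Leaving out 1 library, Splice del against C321fs gave 0 to 1 called genes (TGFB1, without Splice del replicate 1 or C321fs replicate 3). TGFB1 in Splice del cells was not called under upper-quartile scaling, no scaling, the trend removal or the test against 1.5-fold. BMP7 in C321fs cells was also called with upper-quartile or no scaling and without control replicate 1, and TGFB2 without C321fs replicate 3. The call of ID1 between A333fs and C321fs was lost with no scaling (0.569) and without C321fs replicate 3 (0.486) or A333fs replicate 1 (0.561), and that of ID3 between A333fs and Splice del with no scaling (0.563) and without Splice del replicate 1 (0.5696), each below 1.5-fold. The cause was not tested.

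Sign changes concerned small differences. BMP4 in Splice del cells became 0.081 with upper-quartile scaling, 0.18 with no scaling, 0.0092 with a minimum of 10 counts per library and 0.073 with the trend removed, and ranged from -0.041 to 0.025 over fits without 1 library. TGFB1 in C321fs cells became 0.029, 0.11 and 0.12 with upper-quartile scaling, no scaling and the trend removed. SMAD7 became 0.021 in Splice del and 0.060 in C321fs cells with no scaling, and 0.0030 in C321fs cells with the trend removed. Between A333fs and Splice del, TGFB3 became -0.0296 with no scaling. Over fits without 1 library it ranged from -0.036 to 0.068, and MSX2 from -0.077 to 0.0079. BMP7 in Splice del cells ranged from -0.15 to 0.62. No scaling moved the median of all genes to 0.22, 0.19 and 0.16 in the 3 mutant lines, since TMM factors were 0.884 to 0.943 in control and 1.01 to 1.05 in the mutant lines. The share of calls over all genes that were higher went from 57.8%, 67.2% and 44.5% to 79.1%, 86.3% and 73.7% with upper-quartile scaling, to 92.2%, 93.2% and 80.2% with no scaling and, in A333fs cells, to 71.9% with the trend removed. The replicate block gave 3, 2 and 4 called genes in the Splice del, C321fs and A333fs lines against control and changed no call of the 10 genes. Counts under 25 limit BMP7.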
